A study of Mus musculus with 6 samples.

Results

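The 9 genes described here encode the proteins that release calcium from the endoplasmic reticulum and pump it back: the ryanodine receptors Ryr1, Ryr2 and Ryr3, the inositol trisphosphate (IP3) receptors Itpr1, Itpr2 and Itpr3, and the SERCA pumps Atp2a1, Atp2a2 and Atp2a3. They were chosen by family membership out of the 27179 genes counted, with Ryr3 selected on its increase in the CRY2 line, so that the values of Ryr3, and those of the other 8 genes in the comparison of the CRY2 line with its parent, are given as descriptions with no test. mRNA-seq was performed on mouse embryonic fibroblast lines, with 2 libraries from separate RNA preparations for each of 3 lines. CPN-/- cells lack CRY1, CRY2, PER1, PER2, NR1D1 and NR1D2, the repressor proteins of the circadian clock, and the other lines carry the same deletions. CPN-/- CRY1 and CPN-/- CRY2 are derivatives of CPN-/- to which CRY1 or CRY2 was returned by a viral vector. Transcription of the returned gene is driven by a viral promoter, and each derivative grew from a single colony, so that differences between colonies and effects of the returned protein cannot be told apart. The cells were grown in serum-containing medium without treatment. The comparisons ask which genes change when CRY1 or CRY2 is expressed in cells that lack the clock repressors. The p-values measure the spread between RNA preparations of 1 line each, and not between independently made lines. That spread was estimated over all 3 lines together, so that the CPN-/- pair also enters the p-values between the CRY lines.

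IP3 receptors are tetrameric channels of the endoplasmic reticulum that open when IP3, made by phospholipase C, and calcium bind to them. Ryanodine receptors are the related, larger channels that open on calcium itself, or on contact with the voltage-gated calcium channel of the plasma membrane in skeletal muscle. RYR1 is the channel of skeletal muscle and RYR2 that of the heart, while RYR3 is found at low levels in many tissues, among them brain and smooth muscle. SERCA pumps use ATP to return calcium to the store: SERCA1 (Atp2a1) in fast skeletal muscle, SERCA2 (Atp2a2) in nearly all cells, and SERCA3 (Atp2a3) mainly in blood, endothelial and epithelial cells. Fibroblasts release calcium chiefly through IP3 receptors. CRY proteins repress transcription by CLOCK-BMAL1, which binds the E-box CACGTG in promoters.

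The 250 bases before the start site were available from the RefSeq table (GRCm38.p6) for Ryr1, Ryr2, Itpr2, Itpr3, Atp2a1 and Atp2a3, and not for Ryr3, Itpr1 and Atp2a2. CACGTG reads the same on both strands and was searched as these 6 letters. It was present once in the window of Itpr3, with its first base at position -85 from the start site, and in none of the other 5 windows. Of all 32851 windows of this length in the table, 1978 (6.02%) held it. The window of Itpr3 (chr17:27057054-27057303, plus strand) is shown because it holds the E-box, in capitals, and that of Atp2a3 (chr11:72960919-72961168, plus strand) because it holds no such match and both CPN-/- CRY1 libraries of this gene lay below the other 4. A match of letters is a description and not a binding site.
Itpr3: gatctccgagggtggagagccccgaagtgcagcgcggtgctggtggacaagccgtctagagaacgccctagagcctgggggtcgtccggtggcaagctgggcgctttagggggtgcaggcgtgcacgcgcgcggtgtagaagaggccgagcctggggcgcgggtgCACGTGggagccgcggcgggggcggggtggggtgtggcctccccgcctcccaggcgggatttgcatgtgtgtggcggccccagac
Atp2a3: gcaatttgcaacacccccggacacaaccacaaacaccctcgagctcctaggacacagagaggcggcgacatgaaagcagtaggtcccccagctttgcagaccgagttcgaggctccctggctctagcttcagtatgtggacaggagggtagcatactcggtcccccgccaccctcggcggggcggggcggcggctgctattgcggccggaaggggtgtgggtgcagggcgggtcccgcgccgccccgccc

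The libraries held between 25957409 and 36106949 counts. A floor of 3 counts corresponded to between 0.0831 and 0.116 CPM, the usual depth-scaled count, here computed with TMM factors of 0.991 to 1.01. Of the 9 genes, 7 passed the filter on low counts and entered the test, as did 14069 of all genes. Cry1 was at 115 to 125 CPM in CPN-/-, 165 to 190 in CPN-/- CRY1 and 48.3 to 51.0 in CPN-/- CRY2. Cry2 was at 129 to 136, 50.7 to 51.7 and 349 to 351 CPM in the same order, so that each returned gene was highest in its own line. Counts of Cry1, Cry2, Per1, Per2, Nr1d1 and Nr1d2 remained in CPN-/-, and counts outside the deleted parts check nothing. Replicate 2 of CPN-/- was low for long transcripts. Over the 12478 tested genes with a known transcript length (88.7%), Spearman's correlation of the difference between replicates 2 and 1 with length was -0.659 in CPN-/-, 0.198 in CPN-/- CRY1 and -0.271 in CPN-/- CRY2, a description across genes. The 719 genes with transcripts over 8 kb had a median difference of -0.64 on the log2 scale in CPN-/-, beside -0.02 for all genes. This touches the 9 genes directly, since the longest transcripts of the ryanodine and IP3 receptor genes span 9.0 to 16.8 kb and those of the SERCA genes 3.5 to 5.7 kb. In CPN-/-, replicate 2 minus replicate 1 was -0.84 for Ryr3, -0.90 for Itpr1, -1.34 for Itpr2 and -0.69 for Itpr3. It was 0.08 for Atp2a1, -0.44 for Atp2a2 and -0.66 for Atp2a3, and it lay between -0.51 and 0.22 for these 7 genes in both other lines. The part of this difference in the results on these genes was not tested. Comparisons of the members with CPN-/- are given with and without each CPN-/- library. A fit without 1 of them takes its spread from the other lines, so that its p-values do not measure the spread of CPN-/-.

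**Figure D1:**
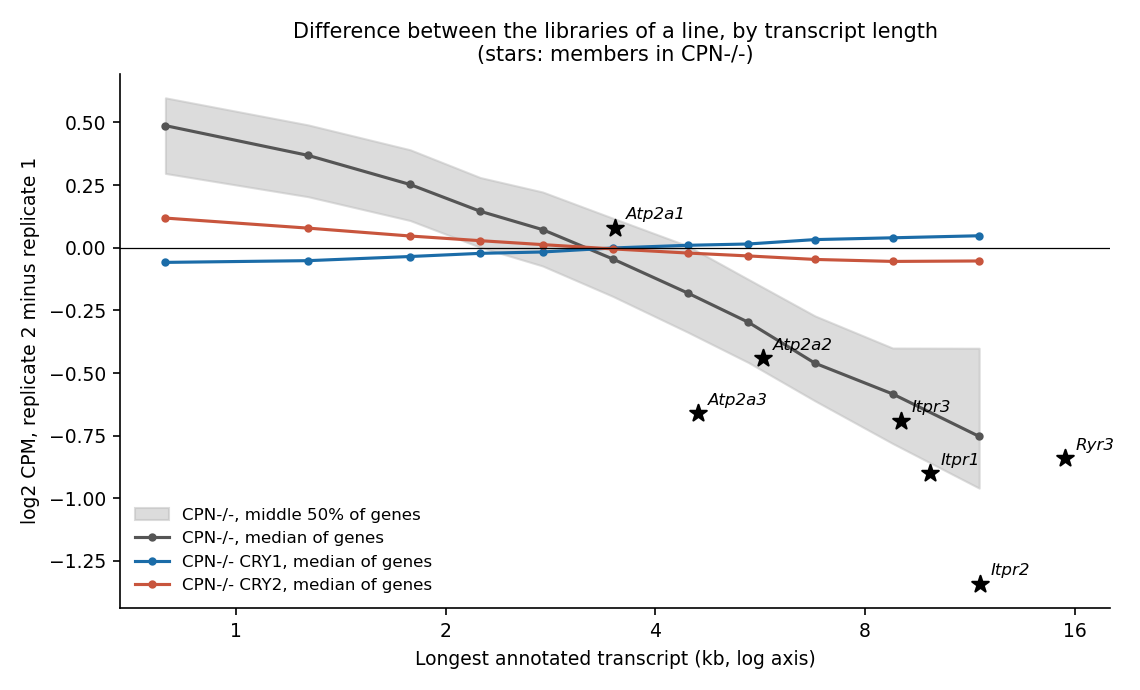
Difference between the libraries of each line (log2 CPM, replicate 2 minus replicate 1) against the length of the longest annotated transcript (kb, log axis); lines join medians of 306 to 2489 genes per length class, the grey band holds the middle 50% of genes in CPN-/-, and stars mark the 7 tested members in CPN-/-. In CPN-/- the median falls from 0.49 for transcripts up to 1 kb to -0.75 for those over 10 kb, while the medians of the CRY lines stay between -0.06 and 0.12.

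Ryr3, whose channel amplifies calcium release, was the ryanodine receptor of these cells. It lies on the minus strand at chr2:112631355-113217096 (GRCm38, GENCODE M21) and its longest transcript has 104 exons. Its counts were 52 and 23 in CPN-/-, 204 and 139 in CPN-/- CRY1, then 316 and 345 in CPN-/- CRY2. On the CPM scale these were 1.63 and 0.883, then 5.64 and 4.51, then 11.6 and 12.8. The 3 lines did not overlap, with CPN-/- lowest and CPN-/- CRY2 highest. The fitted difference from CPN-/- was 3.24 (SE 0.26, log2; 9.48-fold) in CPN-/- CRY2 and 1.98 (SE 0.27; 3.96-fold) in CPN-/- CRY1, both against the same 2 CPN-/- libraries. CPN-/- CRY1 was below CPN-/- CRY2 by a difference of -1.26 (SE 0.22, log2). Without replicate 2 of CPN-/- the differences from CPN-/- were 2.90 and 1.65, without replicate 1 they were 3.78 and 2.53, and with the trend over transcript length removed they were 2.75 and 1.49. Among 12103 genes that averaged 50 counts or more, Ryr3 ranked 2 from the top by fold change in CPN-/- CRY2 against CPN-/-, the contrast that chose it, and 43 in CPN-/- CRY1 against CPN-/-.

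Exons of Ryr3 share 916 bases with Aven, a gene of the opposite strand that encodes a regulator of apoptosis, and the strand setting of the counting is not given in the sources used here. Aven was at 13.3 and 18.0 CPM in CPN-/-, 19.3 and 21.0 in CPN-/- CRY1, then 17.0 and 17.6 in CPN-/- CRY2. Its difference from CPN-/- was 0.37 (SE 0.16, log2; adjusted p = 0.12 by edgeR's quasi-likelihood test) in CPN-/- CRY1 and 0.15 (SE 0.16; adjusted p = 0.57) in CPN-/- CRY2. Aven was above Ryr3 in CPM in every library, so that log2 differences of these genes do not compare as amounts of reads. The part of Aven in the counts of Ryr3 was not tested. The median log2 change over the 1055 tested genes of chromosome 2 was 0.03 and 0.02 in the same order.

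Ryr1 and Ryr2 were near the limit of detection. Ryr1 had 1 and 5 counts in CPN-/-, 3 and 4 in CPN-/- CRY1, then 2 and 2 in CPN-/- CRY2. Ryr2 had 3 counts in replicate 1 of CPN-/- CRY1 and 0 in the other libraries, where up to 3 counts, or 0.0955 to 0.116 CPM, would be compatible with a count of 0. Neither gene passed the filter, and no difference between lines could be detected at this depth. By CPM per kb of longest transcript, Ryr3 made up between 82.0% and 99.4% of the summed ryanodine receptor level in each library. The lowest share was that of CPN-/- replicate 2, where Ryr1 had 5 counts.

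**Figure D2:**
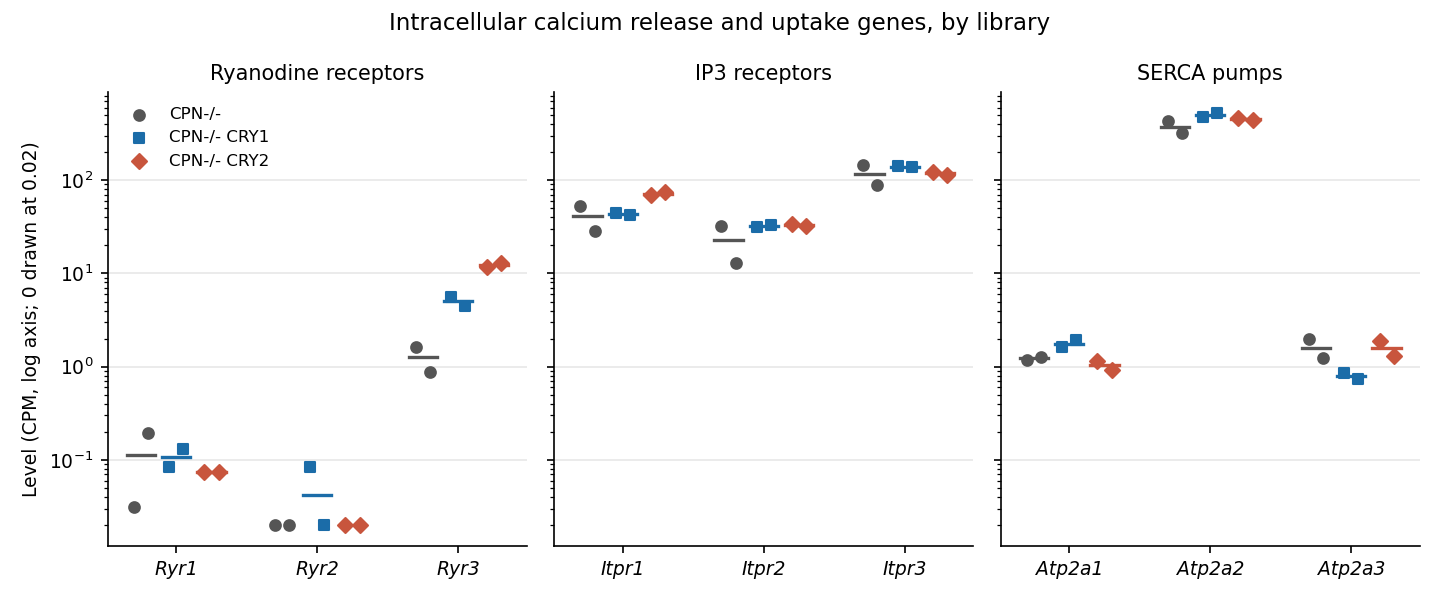
Levels of the 9 genes in each library (CPM, log axis, with a level of 0 drawn at 0.02); points are libraries, bars are the means of 2, and colours and shapes are lines. Ryr3 steps up from CPN-/- (0.883 and 1.63) over CPN-/- CRY1 (4.51 and 5.64) to CPN-/- CRY2 (11.6 and 12.8), while Ryr1 and Ryr2 stay under 0.20.

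Itpr3, the IP3 receptor with the lowest affinity for IP3, was the most abundant of its family, at 58 exons on the plus strand of chr17:27057304-27122223. It was at 144 and 88.8 CPM in CPN-/-, 141 and 138 in CPN-/- CRY1, then 123 and 115 in CPN-/- CRY2. The CRY lines lay within the spread of the CPN-/- pair. CPN-/- CRY1 was 0.26 (SE 0.21, log2) above CPN-/-, with an adjusted p of 0.37 by edgeR's quasi-likelihood test. Of 13 alternative settings, those that kept 2 libraries per line gave an adjusted p of 0.23 to 0.45 by edgeR or DESeq2. The difference was -0.03 without replicate 2 of CPN-/-, -0.08 with the length trend removed, and 0.65 without replicate 1. CPN-/- CRY2 differed from CPN-/- by 0.03 (SE 0.21, log2), or by -0.26 without replicate 2, 0.42 without replicate 1 and -0.30 with the length trend removed, so that its sign turned with the library used. Against CPN-/- CRY2, CPN-/- CRY1 was higher by 0.23 (SE 0.21, log2; edgeR adjusted p = 0.51), and its libraries did not overlap those of CPN-/- CRY2. This difference was 0.18 to 0.28 over the 13 settings. The edgeR adjusted p was 0.00073 with the 4 CRY libraries alone and 0.035 with the length trend removed, and that of DESeq2 was 0.54. The promoter shown above that holds an E-box is the one of this gene.

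Itpr1, the IP3 receptor of highest level in brain, was highest in the CRY2 line. It lies on the plus strand at chr6:108213096-108551109 and has 62 exons. It was at 53.5 and 28.7 CPM in CPN-/-, 44.4 and 42.8 in CPN-/- CRY1, then 69.1 and 74.0 in CPN-/- CRY2. Both CPN-/- CRY2 libraries were above the other 4, and CPN-/- CRY1 lay between the CPN-/- libraries. CPN-/- CRY2 was 0.80 (SE 0.26, log2; 1.74-fold) above CPN-/-, a description. That difference was 0.43 without replicate 2 of CPN-/- and 1.32 without replicate 1. CPN-/- CRY1 was below CPN-/- CRY2 by a difference of -0.71 (SE 0.26, log2), which did not pass the threshold (edgeR adjusted p = 0.11). Its direction was the same in each of 13 alternative settings. The difference stayed between -0.76 and -0.67, and its adjusted p ran from 4.1e-11 to 0.40, with 3 settings under 0.05. These were the fit to the 4 libraries of the CRY lines alone, DESeq2, and the fit with the length trend removed. CPN-/- CRY1 against CPN-/- gave 0.08 (SE 0.26; edgeR adjusted p = 0.83). This difference was -0.29 without replicate 2 of CPN-/- and 0.60 without replicate 1, in opposite directions.

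Itpr2, the IP3 receptor with the highest affinity for IP3, had the widest spread between the CPN-/- libraries. It was at 32.6 and 12.9 CPM in CPN-/-, 31.6 and 32.7 in CPN-/- CRY1, then 34.1 and 32.1 in CPN-/- CRY2. Replicate 1 of CPN-/- was at the level of the CRY lines and replicate 2 stood apart. The difference of CPN-/- CRY1 from CPN-/- was 0.49 (SE 0.36, log2; edgeR adjusted p = 0.34), or -0.01 without replicate 2 and 1.32 without replicate 1. CPN-/- CRY2 differed from CPN-/- by 0.54 (SE 0.36, log2), or 0.03 and 1.37 under the same settings. The CRY lines differed by -0.04 (SE 0.36; edgeR adjusted p = 0.96).

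Within a library, the make-up of the IP3 receptors varied less than their levels. By CPM per kb, Itpr3 made up 66.0% and 71.1% of the summed IP3 receptor level in CPN-/-, 68.5% and 68.3% in CPN-/- CRY1, then 57.9% and 55.5% in CPN-/- CRY2. Itpr1 made up 22.4% and 20.9%, then 19.7% and 19.2%, then 29.7% and 32.6%. The CRY2 line thus held the highest share of Itpr1 and the lowest of Itpr3. Itpr2 made up 7.92% to 12.4% over all libraries. Ryr3 stayed a minor channel: for every 100 units of IP3 receptor CPM per kb there were 0.437 and 0.411 of Ryr3 in CPN-/-, 1.59 and 1.29 in CPN-/- CRY1, then 3.18 and 3.59 in CPN-/- CRY2. This ratio, between long transcripts of the same library, differed little between the CPN-/- libraries.

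**Figure D3:**
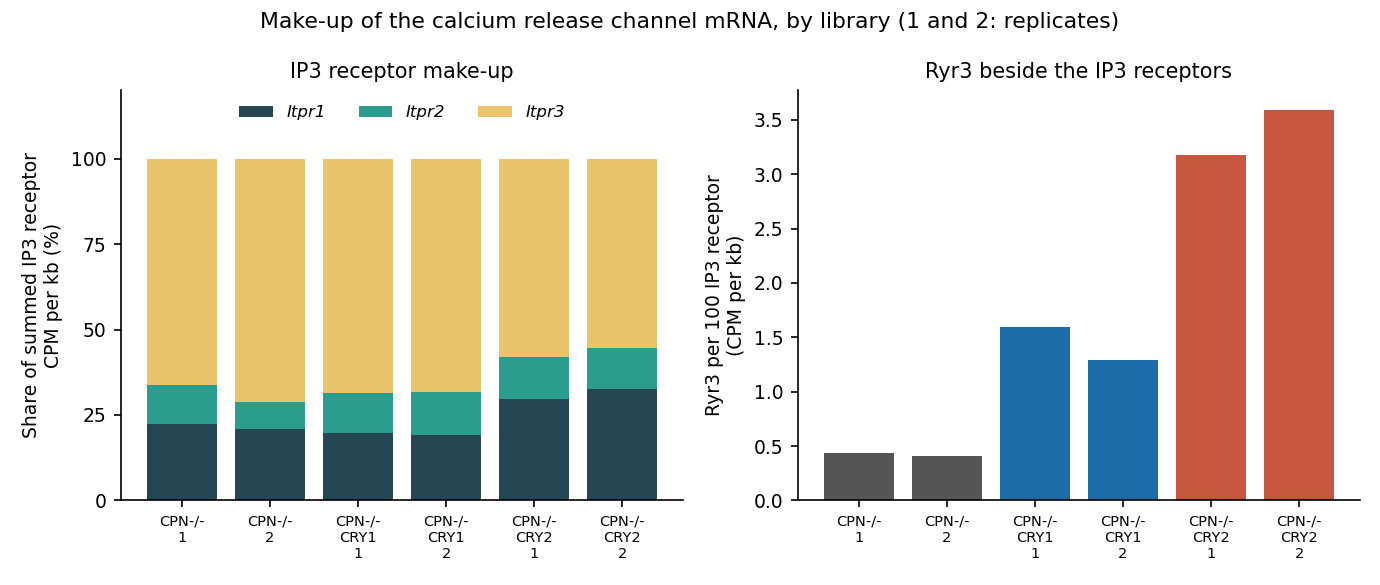
Left, share of each IP3 receptor in their summed CPM per kb of longest transcript (%), by library; right, CPM per kb of Ryr3 for every 100 of the IP3 receptors together, by library, with 1 bar per library and no error bars. Itpr1 takes 29.7% and 32.6% in CPN-/- CRY2 and at most 22.4% elsewhere, and Ryr3 stays at or below 3.59 per 100.

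Atp2a2, which encodes the pump that refills the store in nearly all cells, was the SERCA gene of these lines. It lies on the minus strand at chr5:122453513-122502225. It was at 433 and 318 CPM in CPN-/-, 477 and 531 in CPN-/- CRY1, then 468 and 441 in CPN-/- CRY2, and made up 98.9% to 99.3% of the summed SERCA level by CPM per kb. All 4 CRY libraries were above both CPN-/- libraries. CPN-/- CRY1 was 0.42 (SE 0.16, log2; 1.34-fold) above CPN-/-, with an edgeR adjusted p of 0.092. Over 13 alternative settings the difference ran from 0.23 (without replicate 2 of CPN-/-) to 0.66 (without replicate 1). Where each line kept 2 libraries, the edgeR or DESeq2 adjusted p ran from 0.035 to 0.17. It was under 0.05 with the length trend removed and with DESeq2. CPN-/- CRY2 was 0.27 (SE 0.16, log2) above CPN-/-, or 0.08 without replicate 2 and 0.51 without replicate 1. The CRY lines differed by 0.15 (SE 0.16; edgeR adjusted p = 0.59), and by 0.07 to 0.22 over the 13 settings. The edgeR adjusted p was 0.04 with the 4 CRY libraries alone, and that of DESeq2 was 0.65. Transcripts of Atp2a2 share near-identical sequence with Gm30970, and the handling of reads with several matches is not given in the sources used here.

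Atp2a3 and Atp2a1, the pumps of other tissues, were each at or below 0.642% of the summed SERCA level by CPM per kb. Atp2a3 had 63 and 32 counts in CPN-/-, 31 and 23 in CPN-/- CRY1, then 51 and 35 in CPN-/- CRY2. In CPM these were 1.98 and 1.23, 0.858 and 0.746, and 1.87 and 1.30, so that both CPN-/- CRY1 libraries were below the other 4. CPN-/- CRY1 differed from CPN-/- by -1.01 (SE 0.32, log2; 0.497-fold; edgeR adjusted p = 0.063) and from CPN-/- CRY2 by -0.97 (SE 0.33; 0.509-fold; edgeR adjusted p = 0.094). Over 13 alternative settings the first ran from -1.29 to -0.60 and the second from -1.22 to -0.69. Where each line kept 2 libraries, the edgeR or DESeq2 adjusted p of the first ran from 0.015 to 0.093. It was under 0.05 with a filter of at least 1 count, a replicate term, or the length trend removed. That of the second ran from 0.0042 to 0.12, with 3 settings under 0.05. When replicate 1 of CPN-/- was left out the first was -0.60, and in the absence of replicate 2 it was -1.29. CPN-/- CRY2 differed from CPN-/- by -0.03 (SE 0.30, log2), or by 0.37 without replicate 1 and -0.31 without replicate 2, and its sign turned with the library used.

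Atp2a1 had 38 and 33 counts in CPN-/-, 59 and 59 in CPN-/- CRY1, then 31 and 25 in CPN-/- CRY2. In CPM these were 1.19 and 1.27, 1.63 and 1.91, and 1.14 and 0.926, with both CPN-/- CRY1 libraries above the other 4, the reverse of Atp2a3. CPN-/- CRY1 differed from CPN-/- CRY2 by 0.77 (SE 0.22, log2; 1.71-fold; edgeR adjusted p = 0.059) and from CPN-/- by 0.52 (SE 0.22; edgeR adjusted p = 0.12). The first was between 0.63 and 0.93 over 13 alternative settings, with adjusted p from 0.012 to 0.36 and 2 under 0.05, and the second between 0.41 and 0.64, with none under 0.05. The second was 0.48 when replicate 1 of CPN-/- was left out, and 0.57 when replicate 2 was. CPN-/- CRY2 differed from CPN-/- by -0.25 (SE 0.24, log2), or by -0.29 and -0.20 under these settings. Exons of Atp2a1 share 763 bases with Rabep2, a gene of the opposite strand for an endosomal fusion factor. Rabep2 was at 36.0 to 36.3 CPM in CPN-/-, 38.9 to 43.1 in CPN-/- CRY1 and 36.7 to 36.8 in CPN-/- CRY2, so that it too was highest in CPN-/- CRY1, and its part in the counts of Atp2a1 was not tested.

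**Figure D4:**
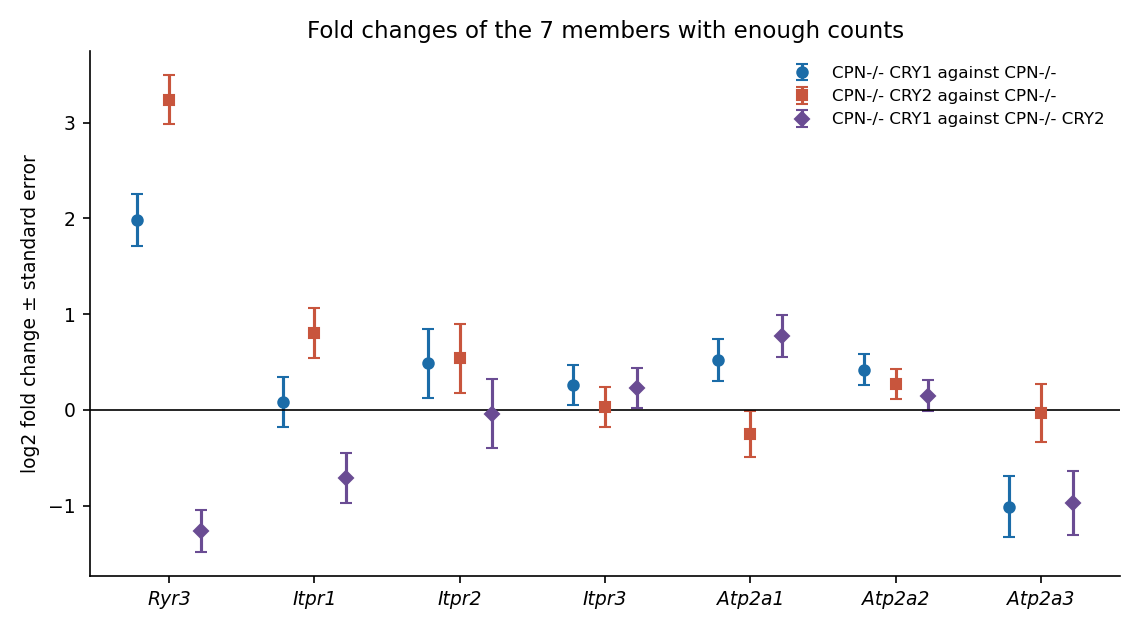
Fitted log2 fold changes of the 7 tested members in the 3 comparisons; points are estimates from all 6 libraries and bars are 1 standard error. Ryr3 stands apart at 3.24 and 1.98 against CPN-/-, and the estimates of the other genes lie between -1.01 and 0.80.

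A gene was called at an adjusted p under 0.05 in the main edgeR fit. Counts of the members called leave out Ryr3, since it was chosen on its increase in CPN-/- CRY2, and the comparison that chose it. In CPN-/- CRY1 against CPN-/-, 24.3% of all tested genes were called (11.2% higher and 13.1% lower). In CPN-/- CRY2 against CPN-/- these were 6.66% (2.58% higher and 4.08% lower), and in CPN-/- CRY1 against CPN-/- CRY2 16.3% (7.72% higher and 8.57% lower). Of the 6 genes other than Ryr3, edgeR called 0 in CPN-/- CRY1 against CPN-/-, where 3 had an unadjusted p under 0.05 (Atp2a1, Atp2a2 and Atp2a3) and DESeq2 called 1, Atp2a2. In CPN-/- CRY1 against CPN-/- CRY2 edgeR also called 0, 3 had an unadjusted p under 0.05 (Itpr1, Atp2a1 and Atp2a3) and DESeq2 called 1, Itpr1. The libraries of the lines did not overlap for 4 of the 7 in CPN-/- CRY1 against CPN-/- (66.9% of all tested genes), for 4 of 7 in CPN-/- CRY2 against CPN-/- (55.1%) and for 6 of 7 in the comparison of the CRY lines (73.3%). The median log2 change of the 7 was 0.42, 0.27 and -0.04 in this order, beside -0.01, -0.01 and 0.00 over all tested genes.

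**Figure D5:**
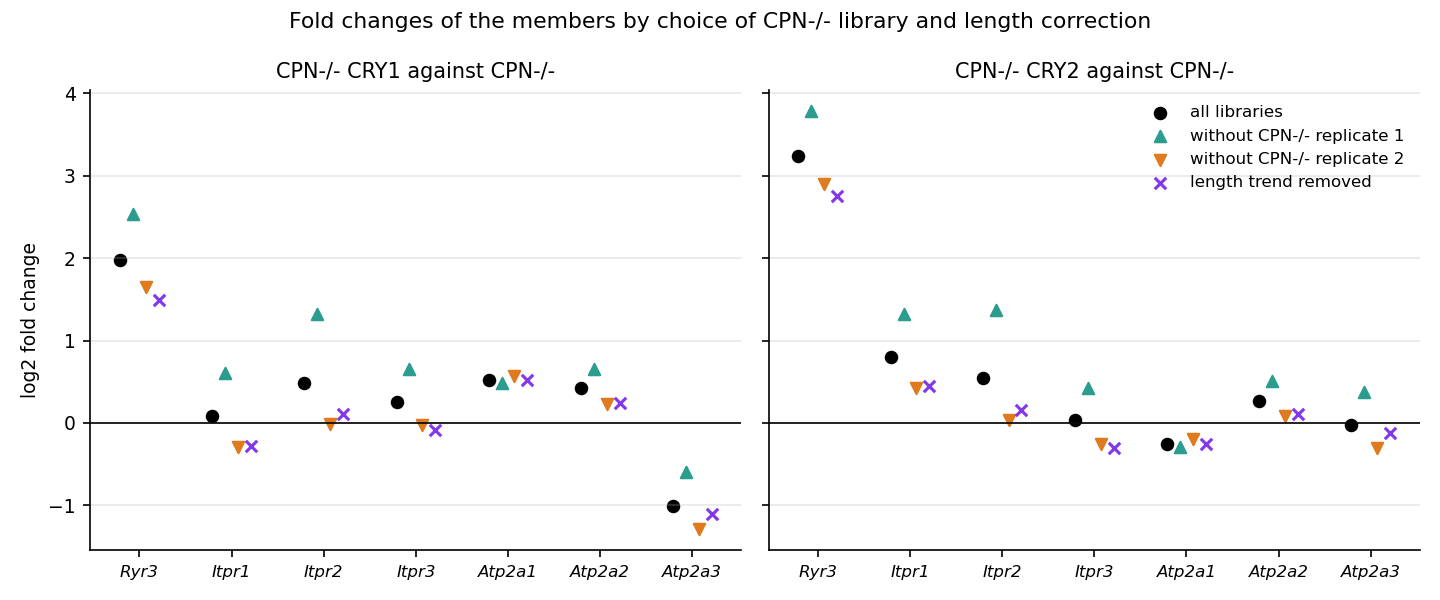
Log2 fold changes of the 7 members against CPN-/-, fitted with all libraries, without either CPN-/- library, and with the trend over transcript length removed; points are estimates without error bars. Ryr3 stays between 2.75 and 3.78 in CPN-/- CRY2 and between 1.49 and 2.53 in CPN-/- CRY1, while Itpr2 in CPN-/- CRY1 moves from -0.01 to 1.32 with the CPN-/- library used.

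Of 96 other genes of calcium handling, arranged in 9 lists by function, 70 were tested. In CPN-/- CRY1 against CPN-/-, 16 rose and 8 fell, with a median log2 change of 0.10. In CPN-/- CRY2 against CPN-/- 4 rose and 1 fell (median 0.04), and between the CRY lines 6 were higher and 6 lower in CPN-/- CRY1 (median 0.03). The percentages of all tested genes called are those given above. Adjusted p-values in the next paragraphs are from edgeR's quasi-likelihood test over all tested genes, and the comparisons with CPN-/- share its 2 libraries. A fit without 1 library leaves its line with 1 sample, and in such fits none of the called genes still tested changed direction. Against CPN-/-, fewer of the calls were kept without a CRY library than without a CPN-/- library. Between the CRY lines most calls were lost without any 1 CRY library, and the cause was not tested.

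Among partners of the ryanodine receptor and junction proteins, 10 of 17 were tested. Cacna1c, the pore of the L-type voltage-gated calcium channel, rose in both CRY lines. It was at 35.8 and 17.5 CPM in CPN-/-, 69.3 and 65.6 in CPN-/- CRY1, then 76.9 and 78.8 in CPN-/- CRY2. Its change was 1.33 (SE 0.29, log2; adjusted p = 0.019) in CPN-/- CRY1 and 1.54 (SE 0.29; adjusted p = 0.027) in CPN-/- CRY2, or 0.92 and 1.13 without replicate 2 of CPN-/-, while leaving out replicate 1 gave 1.95 and 2.15. With the length trend removed, its change in CPN-/- CRY1 was 0.88. The call in CPN-/- CRY2 was lost with the 4 libraries of that comparison alone (edgeR adjusted p = 0.081). The other genes called in this list had means under 50 counts and were singled out after their values were seen. Casq2, a calcium-binding protein of the store that associates with ryanodine receptors, had 24 and 23 counts in CPN-/-, 21 and 23 in CPN-/- CRY1, then 52 and 50 in CPN-/- CRY2. Like Ryr3 it was highest in the CRY2 line, by 1.20 (SE 0.23, log2; adjusted p = 0.028) over CPN-/- and with CPN-/- CRY1 at -1.51 (SE 0.24; adjusted p = 0.0074) relative to it. DESeq2 did not call the first (adjusted p = 0.055), nor did the fit of its 4 libraries alone (adjusted p = 0.063). Jph1, a junctophilin that ties the store to the plasma membrane, had 12 and 12 counts in CPN-/- and 0 in each CRY library. Fkbp1a, the small immunophilin that binds the channels, was at 294 to 370 CPM with no change called, and triadin (Trdn) had 0 counts in every library.

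Among IP3 receptor partners and turnover factors, 11 of 12 were tested. In CPN-/- CRY1 5 rose and 0 fell, and in CPN-/- CRY2 1 rose. The largest rise in CPN-/- CRY1 was that of Itprip, an interacting protein of the IP3 receptor, at 1.05 (SE 0.15, log2; adjusted p = 0.0045), from 28.3 and 21.2 CPM in CPN-/- to 51.3 and 51.5, with 29.1 and 26.7 in CPN-/- CRY2. Ahcyl1, or IRBIT, which competes with IP3 for the receptor, rose in CPN-/- CRY2 by 0.56 (SE 0.10, log2; adjusted p = 0.021). Bok, which binds IP3 receptors, and Ahcyl2 rose in CPN-/- CRY1 by 0.53 (SE 0.15; adjusted p = 0.040) and 0.43 (SE 0.12; adjusted p = 0.046). The remaining genes of the 5 were Irag1, a substrate of cGMP-dependent kinase that binds the receptor, at 1.01 (SE 0.26; adjusted p = 0.033) and Itpripl1 at 0.53 (SE 0.11; adjusted p = 0.018). Bok, Ahcyl2, Irag1 and Itpripl1 were singled out after their values were seen, as were the genes named next beyond the largest change of each list.

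Of the genes of IP3 production and removal, 15 of 16 were tested, and 7 rose and 1 fell in CPN-/- CRY1. Plce1, a phospholipase C activated by Ras family proteins, was at 7.77 and 4.11 CPM in CPN-/-, 27.9 and 24.1 in CPN-/- CRY1, then 8.45 and 8.86 in CPN-/- CRY2. It rose by 2.12 (SE 0.26, log2; adjusted p = 0.0029) in CPN-/- CRY1 and did not pass the threshold in CPN-/- CRY2 (0.53, SE 0.27; adjusted p = 0.27). With the length trend removed, its rise in CPN-/- CRY1 was 1.77. The CRY lines differed by 1.59 (SE 0.26; adjusted p = 0.0087). Plcb1, a phospholipase C activated by G proteins, rose in both CRY lines, by 1.01 (SE 0.18; adjusted p = 0.0098) and 1.19 (SE 0.18; adjusted p = 0.012). Its rise in CPN-/- CRY1 was 0.74 with the length trend removed. Inpp5a, the phosphatase that removes IP3, rose in CPN-/- CRY1 by 0.72 (SE 0.10; adjusted p = 0.0038), or by 0.78 with that trend removed. Between the CRY lines, 4 genes of this list were higher in CPN-/- CRY1 (Plce1, Plch1, Plcb3 and Inpp5a, at 0.49 to 1.62 log2) and 1, Plch2, was lower at -1.23 (SE 0.33; adjusted p = 0.047). Plcd1 fell in CPN-/- CRY1 against CPN-/- by 0.38 on the log2 scale (SE 0.10; adjusted p = 0.035). The call of Plch2 was lost with DESeq2 (adjusted p = 0.19). The chromosomes of several of these genes moved as a whole in CPN-/- CRY1. The median log2 change over 473 tested genes of chromosome 19, which holds Itprip, Plce1 and Plcb3, was 0.31 against CPN-/- and 0.46 against CPN-/- CRY2. Over 638 genes of chromosome 3, which holds Ahcyl1, Mcub, Casq2 and Plch1, it was -0.28 and -0.40, and over the chromosomes of the 9 members it lay between -0.13 and 0.06. The part of these shifts in the changes of single genes was not tested.

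Of the 8 genes for calcium buffers and leak channels of the endoplasmic reticulum, 3 fell in CPN-/- CRY1 and 0 rose: Sdf4 by 0.58 (SE 0.14, adjusted p = 0.024), Pdia4 by 0.45 (SE 0.09, adjusted p = 0.015) and Tmbim6 by 0.37 (SE 0.09, adjusted p = 0.029), all on the log2 scale. In both other comparisons the edgeR fit called none of them. Of the 7 tested genes of store-operated entry, Trpc1, a cation channel of the plasma membrane, rose in CPN-/- CRY1 by 0.62 (SE 0.15, log2; adjusted p = 0.027). Of the 10 genes of mitochondrial calcium uptake, Mcub, a subunit that lowers the conductance of the uniporter, and Micu2, which sets its threshold, were lower in CPN-/- CRY1 than in CPN-/-, by -0.46 (SE 0.12; adjusted p = 0.031) and -0.32 (SE 0.10; adjusted p = 0.050, under the threshold before rounding). The call of Micu2 was lost with DESeq2 (adjusted p = 0.054) and under its size factors (adjusted p = 0.053). Of the 5 tested genes of calcium export, Atp2c1, a calcium pump of the Golgi, rose there by 0.44 (SE 0.11; adjusted p = 0.034), and its relative Atp2c2, with a mean of 25.3 counts, fell by 1.12 (SE 0.32; adjusted p = 0.043), a call that DESeq2 did not make (adjusted p = 0.096). Of the 3 tested endolysosomal channels, Tpcn1 rose there by 0.59 (SE 0.16; adjusted p = 0.036). Among the regulators of SERCA, phospholamban (Pln) had at most 1 count, and sarcolipin (Sln) and myoregulin (Mrln) had 0 counts in every library. The 1 tested gene of that list of 8, Tmx1, had a log2 change of 0.00 in each comparison.

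The genes whose profile over the 6 libraries lay closest to that of Ryr3 were Itga8, Fat4, Cldn1, Tns1 and Serpinb6b. The measure was the Euclidean distance between centred log2 CPM values, over 12102 genes that averaged 50 counts or more, and the median distance was 3.39. Itga8, an integrin subunit, lay at 0.83, with 5.00 and 2.92 CPM in CPN-/-, 9.24 and 8.86 in CPN-/- CRY1, then 32.4 and 31.7 in CPN-/- CRY2. Fat4, an atypical cadherin, lay at 1.16, Cldn1, a tight junction protein, at 1.20, Tns1, which links integrins to actin, at 1.23, and Serpinb6b at 1.30. Of the other members, Itpr1 ranked 270, Itpr2 385, Atp2a2 1863 and Itpr3 3678 by this distance. The libraries fall into 3 lines, so that the likeness rests on 3 levels and on the differences within each pair. In CPN-/-, replicate 2 was below replicate 1 for Ryr3 and all 5 nearest genes, with Fat4 at 38.2 and 14.8 CPM. The part of this in the ranking was not tested.

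Most of the 10 fibroblast markers were present, 8 of them tested, with summed levels of 11163 to 14111 CPM in CPN-/-, 13587 to 13884 in CPN-/- CRY1 and 17399 to 17839 in CPN-/- CRY2, while Lum had at most 3 counts in every library. Of the 10 skeletal muscle markers, 7 had at most 3 counts in every library, Myod1, Myog and Ckm among them, and the list summed to 1.99 to 4.07 CPM. The 7 cardiac markers summed to 0.889 to 1.85 CPM. The 8 smooth muscle markers, of which Myocd had at most 3 counts, summed to 1478 to 1849 CPM in CPN-/-, 5261 to 5449 in CPN-/- CRY1 and 2231 to 2475 in CPN-/- CRY2, so that they were highest in the CRY1 line, where Ryr3 was intermediate. The 7 neuronal markers summed to 63.2 to 85.3, 102 to 104 and 146 to 154 CPM in the same order. The lines ranked as they did for Ryr3, but only 2 of the 7 markers were tested. Rbfox3, Snap25, Elavl4 and Stmn2 had no more than 3 counts, so that the sum rests on Tubb3, Syt1 and Map2 and cannot stand for the list. The endothelial, immune and epithelial lists summed to at most 2.56 CPM in each library. The part of these markers in the results was not tested, and in such bulk RNA a change in the number of cells of a kind and one in RNA per cell cannot be told apart.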

How the data were processed

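mRNA-seq of 3 mouse embryonic fibroblast lines, 2 libraries each, was analysed from the raw counts per gene that the authors deposited. The authors prepared stranded, polyA-selected libraries, mapped paired-end reads to mm10 with RNA STAR and counted them with featureCounts. The gene annotation, strand setting and handling of reads with several matches are not given in the sources used here. Wrong settings of these would move reads between overlapping or near-identical genes. Counts of 27179 genes were used without change. Symbols were matched through a RefSeq table, and positions, transcript lengths and exon overlaps came from GENCODE M21. Near-identical transcripts (95% over 150 bases) were found with BLAST+ 2.17.0.

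Tests used R 4.3.3 and edgeR 4.0.16: filterByExpr (10 counts, 15 in total), TMM, a robust quasi-likelihood fit of all 6 libraries with the cell line as its only term, two-sided tests and Benjamini-Hochberg adjustment over 14069 genes, at 0.05. DESeq2 1.42.0 was an alternative. Alternatives also changed the scaling, the filter, the libraries and the replicate term, required a log2 change of at least 1, or removed a loess trend (span 0.5) over transcript length. The scripts were tested on simulated counts. The floor and totals cover counting error only.

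The 9 members and the lists were chosen with earlier results of these data known. Named genes are the members, the clock genes deleted in the lines, the called gene of each list with the largest change per direction and a mean of at least 50 counts, and the 5 genes nearest to Ryr3; others are said to be singled out or were called in a list whose counts are given. Strit1, Erln and Arln were not analysed here, and Irag1 was matched by an older symbol.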

Additional observations from a re-analysis of the deposited data

Results flagged for a closer look

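In 12 of the 70 tested calcium pathway genes, all named above, the direct comparison of CPN-/- CRY1 with CPN-/- CRY2 passed the threshold in the edgeR fit. Their change from CPN-/- thus differed between the CRY lines. Of all tested genes, 16.3% passed in this comparison, so that the number called is not particular to these lists. Plch1 was higher in CPN-/- CRY1 by 1.62 (log2; adjusted p = 0.0067), Plce1 by 1.59 (adjusted p = 0.0087), Plcb3 by 0.93 (adjusted p = 0.0031), Itprip by 0.88 (adjusted p = 0.0097), Trpc1 by 0.78 (adjusted p = 0.017) and Inpp5a by 0.49 (adjusted p = 0.017). Atp2c2 was at -1.75 (adjusted p = 0.010), Casq2 at -1.51 (adjusted p = 0.0074), Plch2 at -1.23 (adjusted p = 0.047), Mcub at -0.46 (adjusted p = 0.037), Ahcyl1 at -0.37 (adjusted p = 0.046) and Micu2 at -0.36 (adjusted p = 0.045). The call of Ahcyl1 was lost with at least 1 count (adjusted p = 0.062), at least 10 counts in every library (adjusted p = 0.050) and the replicate block (adjusted p = 0.068). That of Micu2 was lost with at least 1 count (0.060) and the block (0.071), and that of Plch2 under these settings (0.055 and 0.064) and with DESeq2 (0.19). Mcub, Ahcyl1, Casq2 and Plch1 lie on chromosome 3, whose median log2 change in this comparison was -0.40, and Plce1, Plcb3 and Itprip on chromosome 19, whose median was 0.46. The part of these shifts was not tested. A fit without 1 CRY library leaves its line with 1 sample. In those fits all 12 kept their direction, and most of the calls were lost. With 2 libraries in a line, no single library could be tested as an outlier.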

How the results depend on the processing

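Genes called numbered 3423 in CPN-/- CRY1 against CPN-/-, 937 in CPN-/- CRY2 against CPN-/- and 2292 between the CRY lines, and calcium pathway genes 24, 5 and 12. With the 4 libraries of a comparison alone these became 1798, 473 and 6838 genes, and 9, 2 and 34 pathway genes. With the length trend removed they were 5278, 2219 and 4339 genes, with 19 pathway genes in CPN-/- CRY2 against CPN-/- and 23 between the CRY lines, and fewer genes (12478) were tested. With a log2 change of at least 1 they were 1089, 526 and 828, with 7 pathway genes in CPN-/- CRY1 against CPN-/- and 5 between the CRY lines. At least 10 counts in every library left 583 genes in CPN-/- CRY2 against CPN-/-. Leaving out 1 library gave 663 to 8980, 199 to 8046 and 475 to 495 genes, and 2 to 48, 0 to 43 and 0 to 2 pathway genes. The highest numbers came without replicate 1 of CPN-/- (8980 and 8046) and the next without replicate 2 (6360 and 3185). The lowest came without a CRY library, whose line then has 1 sample that is assumed to vary like the other groups. The cause was not tested.

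Members called numbered 1 in each comparison. DESeq2 called 2 in each, the filter of at least 1 count 2 in CPN-/- CRY1 against CPN-/-, and the length correction 3, 3 and 5. The 4 libraries of the CRY lines called 6. With those 4 libraries 6838 of all 13760 tested genes were called, and with the length correction 5278, 2219 and 4339 of 12478. The numbers of members called thus rose in these settings together with those of all genes. Leaving out 1 library gave 1 to 5 in each comparison with CPN-/- and 0 between the CRY lines, whichever CRY library was left out. Directions reversed against CPN-/- in CPN-/- CRY1 for Itpr1 and Itpr3 (-0.28 and -0.08 with the length correction) and, without replicate 2 of CPN-/-, for Itpr1, Itpr2 and Itpr3. Leaving out 1 library gave -0.29 to 0.60 for Itpr1, -0.01 to 1.32 for Itpr2 and -0.03 to 0.65 for Itpr3, and between the CRY lines -0.09 to 0.00 for Itpr2, which lost its sign without replicate 1 of CPN-/- CRY2. In CPN-/- CRY2 against CPN-/-, where members are described only, the sign also turned for Itpr3 (0.03 in the fit of all libraries, -0.30 with the length correction, -0.26 and 0.42 without replicates 2 and 1 of CPN-/-) and Atp2a3 (-0.03, with 0.37 without replicate 1).

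Whether same-numbered libraries of different lines share a preparation or batch is not given in the sources used here. Their deviations correlated at -0.079, 0.141 and -0.030 over 14069 genes, which cannot decide it. With the replicate block 3458, 977 and 2188 genes were called. Of the members other than Ryr3, Atp2a3 was called in each comparison that involves CPN-/- CRY1.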
